A study of Mus musculus with 8 samples.

Results

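Myc and 40 genes of ribosome biogenesis were followed through pure and mixed cultures of wild-type (WT) and cancer small intestine organoids. The 41 genes were taken by symbol from a list written for this group of genes, and all 41 were found among the 13420 mouse genes of the read count table. Of these, 27 had enough reads for testing, out of 5264 tested genes in all. The other 14 genes had between 36 and 163 reads over all libraries together, and are given below as counts.

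Bulk mRNA was measured by CEL-Seq, a method that barcodes each sample and reads the 3′ ends of transcripts. WT cells came from mTmG mice on C57BL/6, which carry membrane-bound tdTomato. Cancer cells came from mice labelled C57BL/6 (F6) whose alleles included Villin-CreERT2, Apc fl/fl and Tr53 fl/R172H (the Trp53 gene), and they carried the fluorescent protein Dendra2. Villin-CreERT2 is a Cre recombinase that is driven in the intestinal epithelium and activated by tamoxifen. Clumps of cells were combined at 2 parts WT to 1 part cancer, and live cells were separated by fluorescence on day 3. The groups were pure WT (libraries A01 and A05), mixed WT (A02 and A06), pure cancer (A03 and A07) and mixed cancer (A04 and A08), with 2 libraries each. The libraries are named by their wells, and nothing in the labels says that they came from separate cultures, so the p-values measure only the spread between these samples, which may be technical. WT and cancer cells also differ in animal of origin and reporter, and these cannot be told apart from the cancer alleles.

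Ribosomes are assembled in the nucleolus. RNA polymerase I copies the ribosomal DNA into a long precursor, small nucleolar ribonucleoproteins modify that precursor, and large sets of assembly factors cut and fold it into the small and the large subunit. Myc is a transcription factor that binds E-box sequences with its partner Max and is known to raise the transcription of many of these genes. In the intestine, Myc is a target of the Wnt pathway, which Apc restrains, and dividing crypt cells make many ribosomes.

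Depth set the precision of every value. The libraries held between 73109 reads (mixed WT A02) and 4733121 reads (mixed cancer A04) on genes. Levels below are in CPM, that is, reads of a gene scaled to a common library total after TMM normalization. In A02 a single read was worth 13.1 CPM, and 17 of the 41 genes had 0 reads there, against 0 genes in A01, A04 and A05 and 3 to 5 genes in each of the other libraries. The exact 95% Poisson interval of a count of 0 in A02 reaches 48.4 CPM. Epithelial markers were present in all libraries, with summed levels between 4739 and 16058 CPM, whereas the 8 enterocyte markers in the table summed to between 1541 and 1848 CPM in WT cells and to at most 15.7 CPM in cancer cells. Enteroendocrine markers summed to between 268 and 551 CPM in WT cells and to at most 1.57 CPM in cancer cells, while goblet markers summed to 455 to 3740 CPM and Paneth markers to 406 to 2121 CPM over all libraries. In cancer cells these last sums rested on single genes, Spink4 at 449 to 1102 CPM (goblet) and Mmp7 at 478 to 861 CPM (Paneth). The defining goblet markers Tff3, Fcgbp and Agr2 were at most at 15.6 CPM in cancer cells, and the Paneth markers Lyz1 and Ang4 at most at 15.7 CPM. Of the tested markers, 3 of 4 goblet and 2 of 3 Paneth markers were lower in cancer than in WT cells, and Mmp7 was higher (edgeR). The lower ones had enough reads for testing only through WT libraries. Of 6 immune markers only Cd68 was in the table, at up to 68.8 CPM in A07, and fibroblast and muscle markers summed to at most 5.25 CPM. The reads of Apc and Trp53 lie at the 3′ end, outside internal deleted exons and point mutations, and so do not check the genotypes. Trp53 was at 178 and 324 CPM in pure WT cells, 13.1 and 174 CPM in mixed WT cells, and between 5.25 and 71.8 CPM in the 4 cancer libraries. Apc had at most 22 reads in any library.

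**Figure D1:**
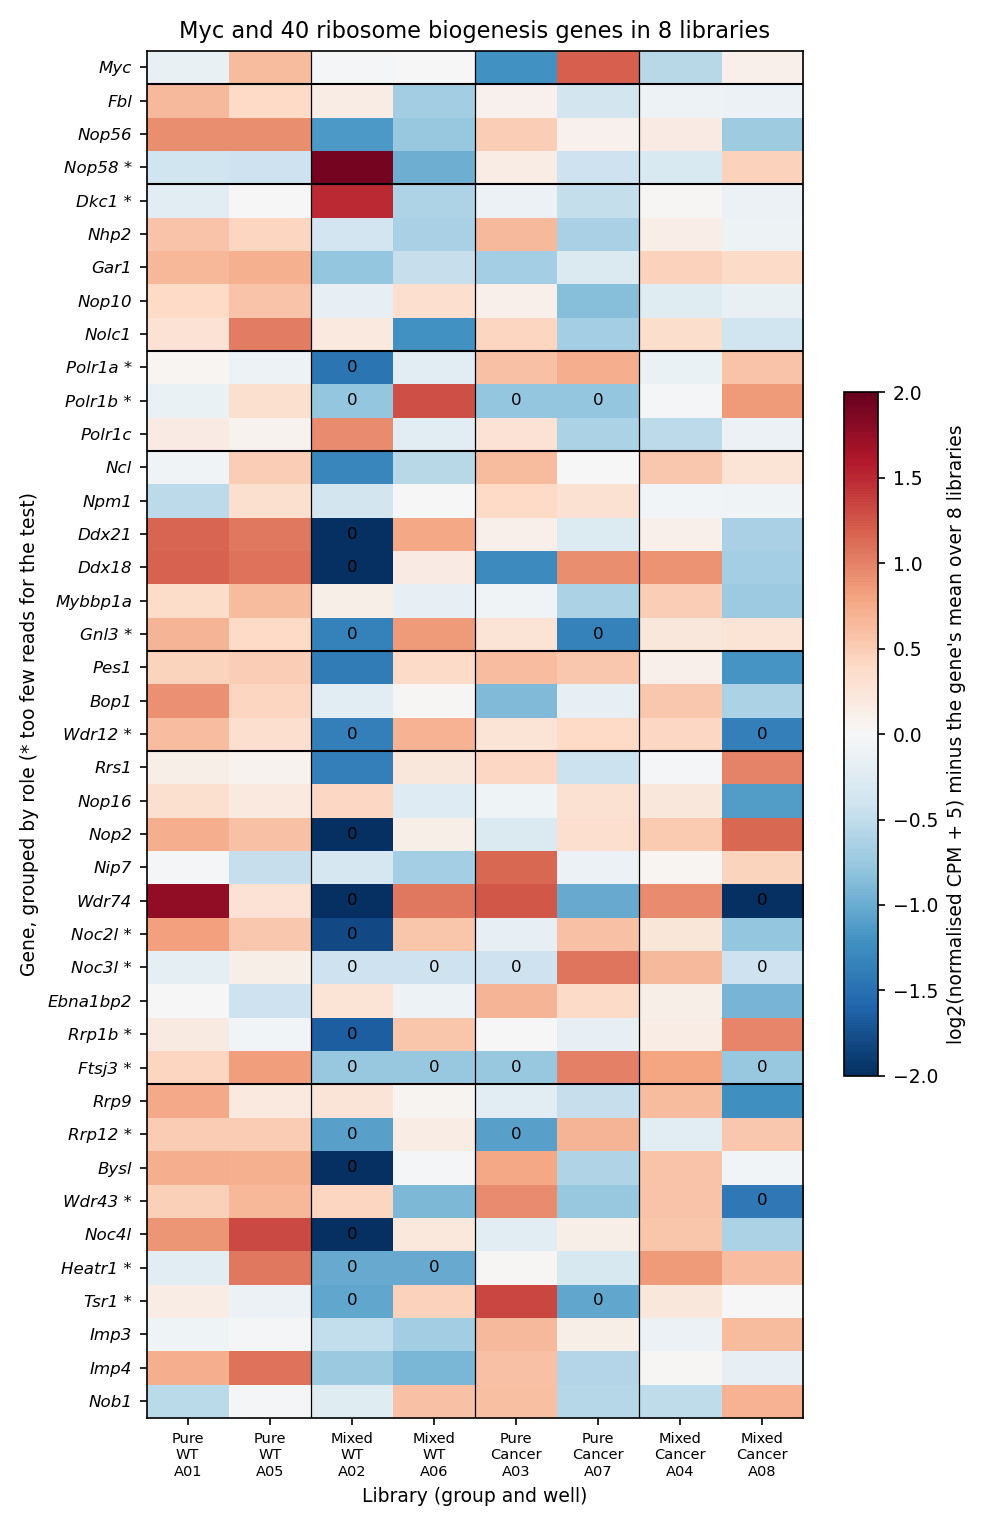
Heat map of all 41 genes (rows, grouped by role with black lines between roles) in the 8 libraries (columns, by group and well). Color shows log2 of the normalized CPM plus 5, minus the gene's mean over the 8 libraries; a 0 marks a gene without reads, an asterisk one of the 14 genes with too few reads for testing. The zeros are concentrated in A02, with 17 of 41 genes.

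Myc itself was compared first, since it is the regulator in the list. It was found at 60.4 and 107 CPM in pure WT libraries A01 and A05, and at 65.5 and 68.0 CPM in mixed WT libraries A02 and A06. In cancer cells it was found at 26.2 and 162 CPM in pure libraries A03 and A07, and at 44.4 and 72.6 CPM in mixed libraries A04 and A08. The lowest and the highest level thus both came from pure cancer cells, and no pair of groups was fully separated.

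Within pure cancer cells, the Poisson intervals of the Myc reads did not overlap between the libraries. The 95% exact Poisson interval was 8.52 to 61.2 CPM for the 5 Myc reads of A03, and 121 to 211 CPM for the 54 reads of A07. Poisson intervals here and below cover counting error of reads only. Reads include amplification copies, which are not independent, so these intervals can be too narrow. They do not show a spread beyond the counting error of molecules. Myc was not called in any comparison (edgeR's quasi-likelihood test). The log2 fold change of cancer against WT cells over both cultures was -0.03 (SE 0.50, 95% interval -1.06 to 1.01, adjusted p = 0.986). On mixing, WT cells gave -0.33 (95% interval -1.81 to 1.16) and cancer cells gave -0.82 (95% interval -2.28 to 0.64). These intervals leave room for changes of more than 2-fold in either direction for cancer against WT cells, and the data do not show that Myc was equal in the groups.

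The first question of the study was what happens to WT cells that share organoids with cancer cells. In mixed WT cells, the 41 genes summed to 2110 CPM in A02 and 2279 CPM in A06, against 3221 CPM in A01 and 3388 CPM in A05 of pure WT cells. Pure cancer libraries summed to 3228 CPM (A03) and 2394 CPM (A07), and mixed cancer libraries to 2676 CPM (A04) and 2438 CPM (A08). In read counts, both mixed WT libraries were thus the lowest of the 8. The mean of mixed WT cells (2195 ± 119, SD, n = 2) was 0.664 times that of pure WT cells (3304 ± 118, SD, n = 2).

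As a share of all reads, the genes took 0.220% of A02 (161 reads, 95% Wilson interval 0.189% to 0.257%) and 0.195% of A06 (0.184% to 0.208%). In pure WT cells the share was 0.319% in A01 and 0.316% in A05. Among molecule barcodes, the genes took 0.330% in A02 and 0.393% in A06, against 0.623% in A01 and 0.645% in A05, but mixed cancer library A08, at 0.364%, lay below A06. The barcode share was 0.600% in A04, and 0.471% and 0.396% in A03 and A07. It was thus highest in the deepest libraries (A01, A04 and A05). Depth and group cannot be told apart in the barcode shares of WT cells. Without Npm1, Nhp2 and Polr1c, the genes with most reads over all libraries, the mixed WT mean was 0.593 times the pure WT mean. Of these genes only Nhp2 was lower in both mixed WT libraries than in both pure ones. Leaving them out therefore does not show which genes the low sum rested on. In bulk samples, fewer cells that express these genes and less RNA per cell cannot be told apart.

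Gene by gene, none of the 27 tested genes was called in mixed against pure WT cells at the threshold of 0.05 for the p-value adjusted over all 5264 genes (edgeR, Benjamini-Hochberg), and DESeq2 called 0 as well. Among all tested genes, 0.741% were called. At an unadjusted p under 0.05 there were 3 of 27 genes, all lower in mixed WT cells, against 9.67% of all tested genes, and DESeq2 gave 2. The fold change was below 0 for 24 of the 27 genes, against 54.9% of all genes. Both mixed WT libraries lay below both pure WT libraries for 17 of the 27 genes, against 28.8% of all genes. They lay above for 0 genes, against 15.0% of all genes. The median log2 fold change was -0.68, against -0.10 over all tested genes.

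The comparison with all genes depended on library A06. Without A06, the median of the 27 genes was -0.75 while that of all tested genes was -0.74. Without A02 it was -0.65 for 30 tested genes, against -0.09 for all genes. Of the 27 genes, 6 had 0 reads in A02 (Ddx21, Ddx18, Nop2, Wdr74, Bysl and Noc4l).

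Against counting error alone, the Poisson interval of A06 lay below those of both pure WT libraries for 5 of the 41 genes (Fbl, Nop56, Nhp2, Gar1 and Imp4) and above them for 0. For A02 it lay below for 3 genes (Nop56, Pes1 and Nop2) and above for 2 (Nop58 and Polr1c). Nop56 was the only gene below in both. These intervals were compared for the 41 genes only, so the counts cannot be set against a share over all genes. Since they treat amplification copies as independent reads, the counts of separated genes can be too high.

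The small nucleolar ribonucleoproteins were described next. Nop56 is a core protein of the box C/D particles, which guide methylation of ribosomal RNA. Nop56 was found at 236 CPM in both pure WT libraries, and at 52.4 and 70.2 CPM in mixed WT libraries A02 and A06. It was found at 173 and 129 CPM in pure cancer libraries and at 137 and 72.6 CPM in mixed cancer libraries. Pure WT cells were thus above all other libraries, and the groups of WT cells did not overlap. The log2 fold change in mixed against pure WT cells was -1.87 (SE 0.56, 95% interval -3.03 to -0.71). Its unadjusted p of 0.00289 became an adjusted p of 0.148 (edgeR), which did not pass the threshold. Over the alternatives the adjusted p ranged from 0.0675 to 0.760, and it was 0.0495 in a fit with the set of wells (A01 to A04 against A05 to A08) as a block, which was chosen after seeing the data. In GRCm38 (GENCODE vM21) Nop56 lies on chromosome 2, 130274430 to 130279313, plus strand. Of the 50-base windows in the last 500 bases of its transcript, 80.0% also occurred in other loci, mainly pseudogenes, and Idh3b overlaps its end on the opposite strand, so its count is uncertain.

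Fbl, the methyltransferase of the same particles, was at 243 and 202 CPM in pure WT cells and at 170 and 92.9 CPM in mixed WT cells (log2 fold change -0.86, 95% interval -1.95 to 0.23). The 2 groups did not overlap, and the fold change did not pass the test. Fbl shares 77.6% of its last windows with other loci. The third member, Nop58, had too few reads for testing, with 26 reads in pure WT cells and 7 in mixed WT cells, 5 of them in A02.

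Box H/ACA particles guide pseudouridylation. Their 5 genes summed to 697 and 719 CPM in pure WT cells and to 406 and 403 CPM in mixed WT cells. All 4 tested genes of this class were lower in both mixed WT libraries than in both pure ones. This held for 17 of the 27 tested genes of the list and for 28.8% of all tested genes. Gar1, a structural protein of the particle, was found at 115 and 119 CPM in pure WT cells and at 39.3 and 49.8 CPM in mixed WT cells. It was at 42.0 and 56.9 CPM in pure cancer cells and at 98.6 and 93.4 CPM in mixed cancer cells. Both mixed WT libraries thus lay below both pure ones, and both mixed cancer libraries lay above both pure ones.

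For Gar1, the change on mixing in WT cells minus that in cancer cells was -2.27 on the log2 scale (SE 0.87, 95% interval -4.07 to -0.47). Its unadjusted p was 0.0157 and its adjusted p 0.560 (edgeR), so the difference did not pass the test. Each of the changes by itself did not pass either (WT -1.33, adjusted p = 0.496, and cancer 0.94, adjusted p of 1). Gar1 lies on chromosome 3, 129824912 to 129831396, minus strand (GRCm38), and shares none of its last windows with other loci. Nhp2, an RNA-binding subunit, was at 334 and 301 CPM in pure WT cells and at 170 and 140 CPM in mixed WT cells (log2 fold change -1.06, 95% interval -2.13 to 0.0046). Nop10, the smallest subunit, was at 215 and 242 CPM and at 144 and 204 CPM (log2 fold change -0.35, 95% interval -1.39 to 0.69).

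Small subunit assembly included the lowest log2 fold change of the 27 genes in this comparison. Imp4, a protein of the small subunit processome that associates with the U3 small nucleolar RNA, was found at 81.5 and 106 CPM in pure WT cells and at 26.2 and 22.7 CPM in mixed WT cells. In cancer cells Imp4 was at 73.5 and 29.9 CPM in pure and at 48.3 and 41.5 CPM in mixed libraries. The groups of WT cells did not overlap, whereas those of cancer cells did. The log2 fold change in WT cells was -1.98 (SE 0.75, 95% interval -3.54 to -0.42), with an unadjusted p of 0.0149 and an adjusted p of 0.333 (edgeR). It rested on 2 reads in A02 and 10 reads in A06. Imp4 lies on chromosome 1, 34439851 to 34449356, plus strand (GRCm38).

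Its partner Imp3 was at 124 and 129 CPM in pure WT cells and at 91.8 and 79.3 CPM in mixed WT cells (log2 fold change -0.59, 95% interval -1.73 to 0.55). Rrp9, a protein of the U3 particle, was at 76.9 and 50.0 CPM and at 52.4 and 45.3 CPM, and its groups overlapped. Nob1, the nuclease that makes the mature end of small subunit RNA, had the highest fold change of the 27 genes (0.62, 95% interval -0.71 to 1.96), at 52.2 and 76.4 CPM in pure and 65.5 and 120 CPM in mixed WT cells. Imp4, Gar1 and Nob1 were singled out after their values were seen.

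Of the large subunit factors, Pes1 and Bop1 form the PeBoW complex with Wdr12, which acts in maturation of the large subunit RNA. Pes1 was at 154 and 159 CPM in pure WT cells, at 39.3 CPM in A02 and at 147 CPM in A06. Its low mean in mixed WT cells thus came from the 3 reads of A02. Bop1 was at 176 and 124 CPM in pure and at 78.6 and 92.9 CPM in mixed WT cells (log2 fold change -0.77, 95% interval -2.0 to 0.46). Wdr74, another large subunit factor, was at 70.5 and 21.9 CPM in pure WT cells, had 0 reads in A02 and was at 40.8 CPM in A06.

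Nucleolar proteins of other kinds gave a mixed picture. Npm1, an abundant histone chaperone and nucleolar scaffold, was at 256.3 and 467 CPM in pure WT cells and at 288 and 369 CPM in mixed WT cells, so the mixed libraries lay between the pure ones (log2 fold change -0.12, 95% interval -1.05 to 0.82). Ncl, which binds the precursor RNA, was at 68.6 and 104 CPM in pure WT cells and at 26.2 and 47.6 CPM in mixed WT cells (log2 fold change -1.07, 95% interval -2.42 to 0.27). Ddx21, an RNA helicase, was at 49.4 and 45.0 CPM in pure WT cells, had 0 reads in A02 and was at 36.2 CPM in A06. The RNA polymerase I subunit Polr1c, which is shared with RNA polymerase III, was at 228 and 211 CPM in pure WT cells, at 393 CPM in A02 and at 174 CPM in A06. Polr1c thus differed in direction between the mixed WT libraries. The counts of Polr1a (24 reads in pure and 3 in mixed WT cells) and Polr1b (13 and 7 reads) were too low for testing.

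**Figure D2:**
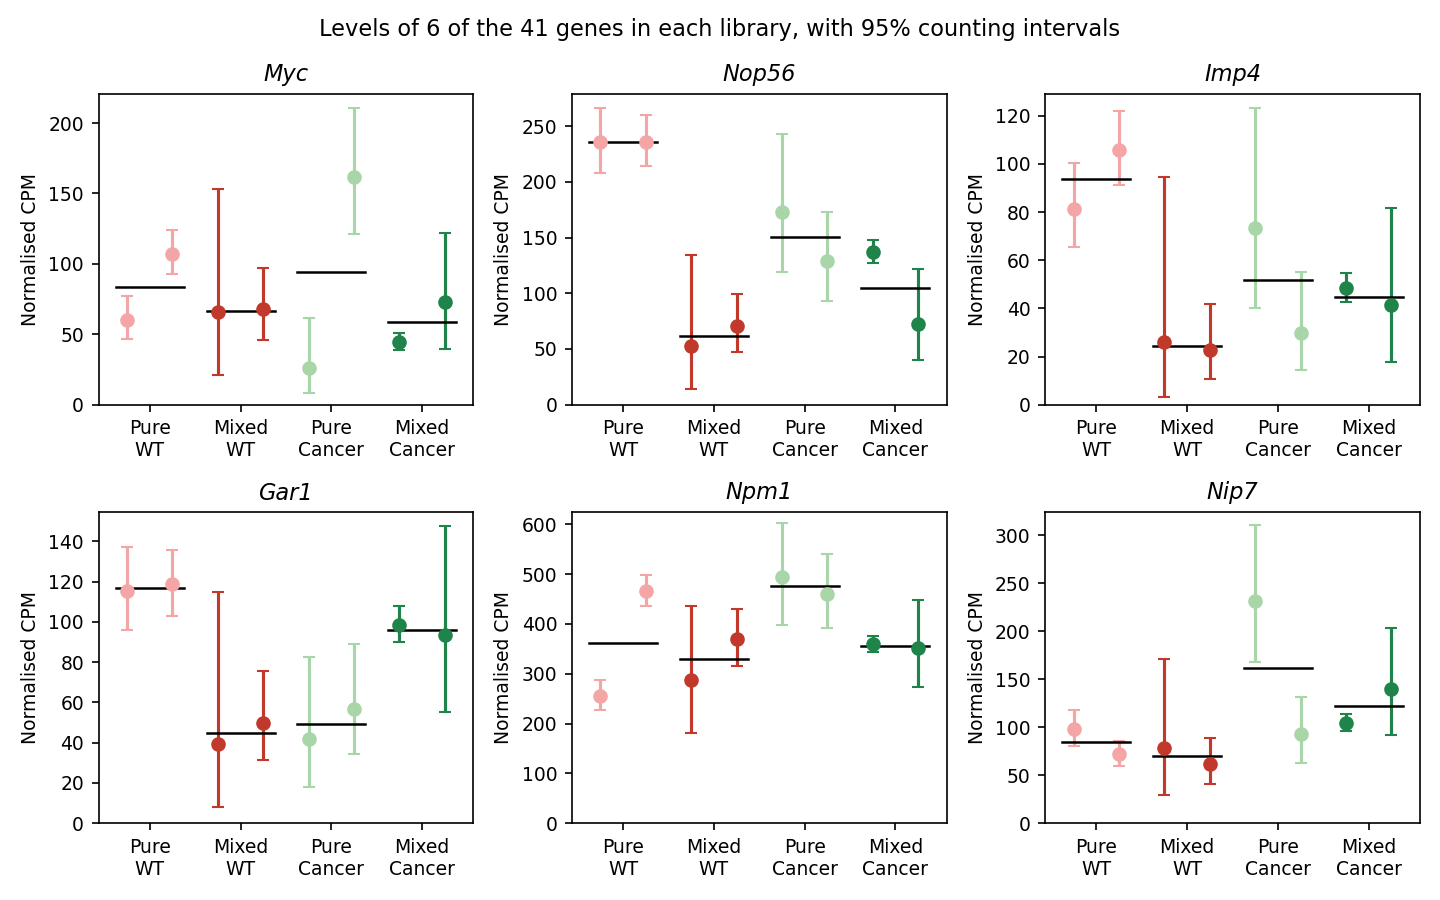
Levels of Myc, Nop56, Imp4, Gar1, Npm1 and Nip7 in each library as normalized CPM (y axis from 0); points are libraries by group, error bars are exact 95% Poisson intervals of the read count and black lines are group means. The mixed WT points of Nop56, Imp4 and Gar1 lie below both pure WT points, and the pure cancer points of Myc lie at 26.2 and 162 CPM.

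The 14 genes without a test were Nop58, Dkc1, Polr1a, Polr1b, Gnl3, Wdr12, Noc2l, Noc3l, Rrp1b, Ftsj3, Rrp12, Wdr43, Heatr1 and Tsr1. Their summed level was 135 and 141 CPM in pure WT cells and 105 and 120 CPM in mixed WT cells, the former from 8 reads. It was 126 and 111 CPM in pure cancer cells and 132 and 119 CPM in mixed cancer cells. Their sum in mixed WT cells was 0.813 times that in pure WT cells. When all 41 genes were fitted without a filter on low counts, 33 were below 0 in mixed WT cells with a median of -0.76. The median of all genes was -0.35 in that fit, and the share of all genes below 0 was not counted there.

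Other gene lists in the same comparison were counted beside these genes. A further 87 genes of ribosome biogenesis, written down as a separate list with no gene in common, summed to 3332 and 3852 CPM in pure WT cells and to 3579 and 3704 CPM in mixed WT cells. Nsa2 alone was at 290 and 567 CPM in pure and at 695 and 816 CPM in mixed WT cells. The order of these sums thus depended on Nsa2, and the sums do not show that the list as a whole was level. Of its 44 tested genes, 22 were below 0 and 22 above, with a median of -0.01, and 0 were called (smallest adjusted p 0.639, Nsa2). The 28 Myc targets that act outside the nucleolus summed to 16024 and 13947 CPM in pure WT cells and to 11601 and 8770 CPM in mixed WT cells. Of these, 26 were below 0 with a median of -0.63 and 0 were called. The smallest adjusted p was 0.0725, for Shmt2, the mitochondrial serine hydroxymethyltransferase (log2 fold change -1.98, SE 0.50). The RNA polymerase I machinery (11 tested of 17) had 6 genes below 0 and 0 called.

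Markers of dividing cells had low sums in the same WT libraries as the 41 genes. The 22 markers summed to 2245 and 2375 CPM in pure WT cells and to 1639 and 822 CPM in mixed WT cells. In cancer cells they summed to 3118 (A03) and 1344 CPM (A07) in pure and to 3018 (A04) and 1209 CPM (A08) in mixed libraries. Of 20 tested markers, 18 were below 0 in mixed against pure WT cells, with a median of -1.05 and 0 called. Mki67, a defining marker, differed in direction between the mixed WT libraries. It had 0 reads in A06, while its 4 reads in A02 stood for 52.4 CPM, against 5.49 and 6.18 CPM in pure WT cells. Within the cancer libraries, the sum of the 41 genes was higher in A03 and A04, where the sum of the 22 markers was high, than in A07 and A08. Within mixed WT cells the order was the reverse. A02 had the higher marker sum and the lower sum of the 41 genes (2110 CPM, against 2279 CPM in A06). The 5 stem cell markers summed to 418 and 579 CPM in pure WT cells and to 78.6 and 195 CPM in mixed WT cells. The part of dividing or stem cells in the sum of the 41 genes was not tested.

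**Figure D3:**
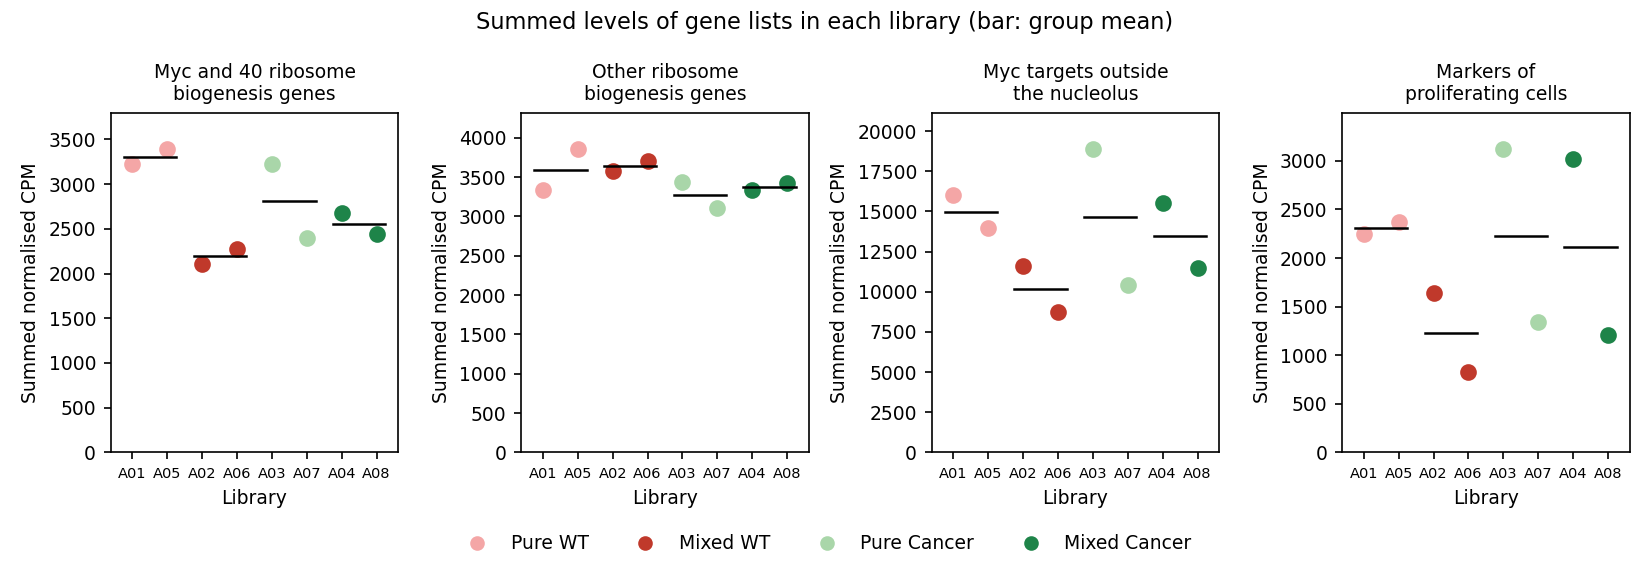
Summed normalized CPM (y axis from 0) of 4 gene lists in each library (x axis, wells), colored by group, with bars for group means. In these read counts the 41 genes are lowest in the mixed WT libraries A02 (2110 CPM) and A06 (2279 CPM). The 87 other ribosome biogenesis genes lie between 3107 and 3852 CPM throughout. Of these, Nsa2 alone is at 290 and 567 CPM in pure and 695 and 816 CPM in mixed WT libraries. The proliferation markers separate A03 and A04 from A07 and A08.

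In cancer cells, mixing was compared in the same way. None of the 27 genes was called (edgeR, 0% of all tested genes called), with 0 at an unadjusted p under 0.05, against 1.31% of all genes, and DESeq2 gave 0 in both counts. The fold change was above 0 for 16 of the 27 genes, against 52.2% of all genes. Both mixed cancer libraries lay above both pure ones for 2 genes (Gar1 and Nop2), against 13.8% of all genes, and below for 3 genes (Pes1, Ebna1bp2 and Npm1), against 10.8%. The median log2 fold change was 0.03, the same as over all tested genes. The half-width of the 95% interval had a median of 1.36 on the log2 scale.

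Npm1 was at 493 and 461 CPM in pure cancer cells and at 360 and 353 CPM in mixed cancer cells (log2 fold change -0.42, 95% interval -1.35 to 0.51). Nop2, a methyltransferase of large subunit RNA, was at 31.5 and 50.9 CPM in pure and at 59.1 and 93.4 CPM in mixed cancer cells (0.80, 95% interval -0.73 to 2.33). The groups were separated for both genes, and neither passed the test.

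Whether mixing acted differently on WT and cancer cells was tested as the difference of both changes, which uses all 4 groups. None of the 27 genes was called (edgeR), against 0.0760% of all tested genes, and DESeq2 called 0. At an unadjusted p under 0.05 there was 1 gene, Gar1, with either tool, against 7.28% of all genes. The difference was below 0 for 20 of the 27 genes, against 55.7% of all genes, with a median of -0.89 against -0.17. The median half-width of the 95% intervals was 1.92, and only 3 of the 27 intervals lay wholly within a 4-fold change.

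**Figure D4:**
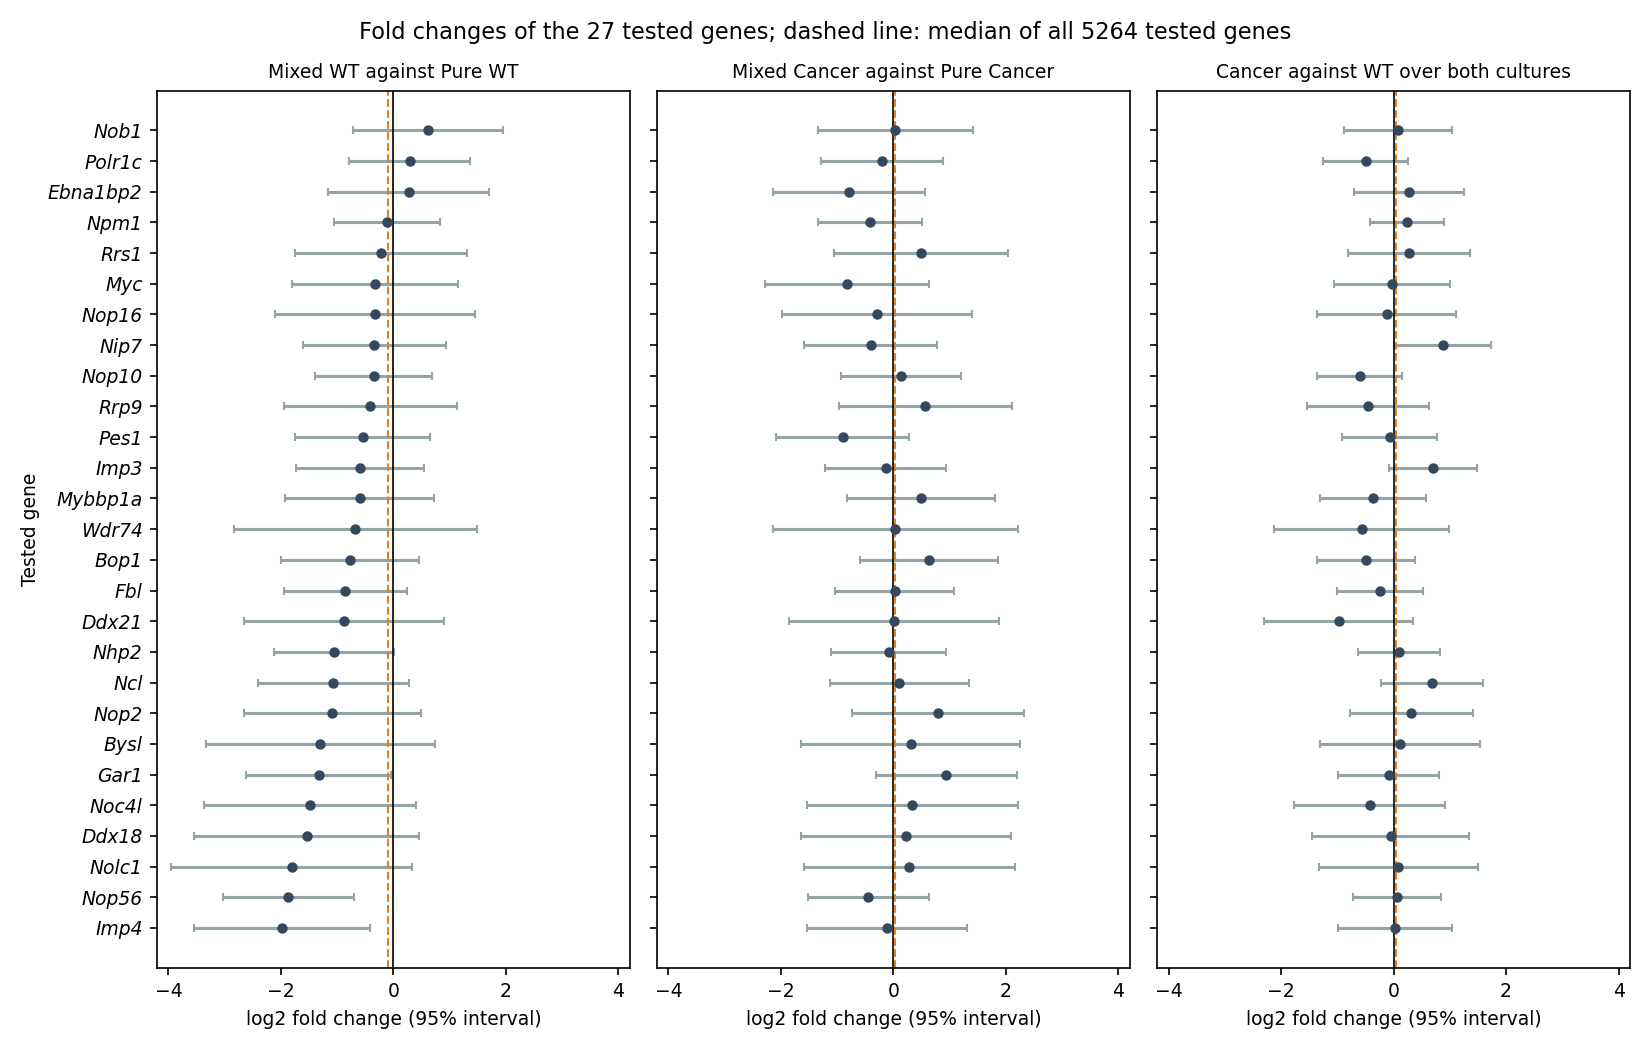
The log2 fold changes (x axis) of the 27 tested genes (y axis, ordered by the left panel) for mixing in WT cells, mixing in cancer cells, and cancer against WT cells over both cultures; bars are 95% intervals and the dashed line is the median of all 5264 tested genes. In the left panel 24 of 27 points lie below 0, and 24, 27 and 26 of the intervals hold 0 in the 3 panels.

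Cancer cells were next compared with WT cells, which answers whether cells with the cancer alleles expressed these genes at another level. Over both cultures, 4 libraries against 4, none of the 27 genes was called (edgeR), while 14.2% of all tested genes were. At an unadjusted p under 0.05 there was 1 gene, Nip7, against 24.7% of all genes, and DESeq2 gave 0 in both counts. The fold change was below 0 for 14 of 27 genes, against 47.6% of all genes. The 4 cancer libraries lay wholly above the 4 WT libraries for 0 genes, against 8.24% of all genes, and wholly below for 0 genes, against 8.11%. The median was -0.03, against 0.04 for all genes. Of the 27 intervals, 25 lay wholly within a 4-fold change.

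Nip7, a factor of large subunit assembly, was at 97.9, 71.9, 78.6 and 61.2 CPM in WT libraries A01, A05, A02 and A06. In cancer libraries A03, A07, A04 and A08 it was at 231, 92.8, 104 and 140 CPM. The ranges overlapped, since A07 lay below A01. Its log2 fold change was 0.87 (SE 0.42, 95% interval 0.004 to 1.74), with an adjusted p of 0.199 (edgeR). Of its last windows, 14.4% are shared with other loci.

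In each role, the genes at either end of this comparison were as follows. Imp3 had the highest fold change of small subunit factors (0.70, 95% interval -0.08 to 1.49), at 210, 144, 121 and 207 CPM in A03, A07, A04 and A08. Rrp9 had the lowest (-0.45, 95% interval -1.54 to 0.64), at 36.7, 29.9, 69.9 and 15.6 CPM. Ncl had the highest among nucleolar proteins and helicases (0.68, 95% interval -0.23 to 1.60) and Ddx21 the lowest (-0.98, 95% interval -2.30 to 0.34).

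Ncl was at 115 and 71.8 CPM in pure cancer cells and at 108 and 88.2 CPM in mixed cancer cells. Ddx21 was at 21.0 and 15.0 CPM and at 20.9 and 10.4 CPM, below each WT library but A02, which had no read. Wdr74 had the lowest fold change of large subunit factors (-0.57, 95% interval -2.13 to 0.99). Among H/ACA genes, Nop10 had the lowest (-0.60, 95% interval -1.35 to 0.14) and Nhp2 the highest (0.10, 95% interval -0.64 to 0.83). Pes1 (-0.07), Bop1 (-0.49), Fbl (-0.24), Nop56 (0.06) and Polr1c (-0.50) all had intervals that held 0.

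The same comparison was made within each culture. In pure cultures, 19 of the 27 genes were below 0 in cancer against WT cells, against 52.1% of all genes, with a median of -0.66 against -0.05. Both pure cancer libraries lay below both pure WT libraries for 12 genes, against 29.4% of all genes, and above for 3 genes, against 23.2%. None was called (edgeR, 9.95% of all tested genes) and 0 had an unadjusted p under 0.05, against 20.5%. Gar1 (-1.22, 95% interval -2.45 to 0.01) and Bop1 (-1.19, 95% interval -2.41 to 0.02) were nearest, and DESeq2 gave 0 in both counts.

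In mixed cultures, 18 of the 27 genes were above 0 in cancer against WT cells, against 55.0% of all genes, with a median of 0.22 against 0.12. Both mixed cancer libraries lay above both mixed WT libraries for 8 genes, against 26.5% of all genes, and below for 0, against 18.4%. None was called (edgeR, 6.42% of all tested genes), 0 had an unadjusted p under 0.05, against 16.4%, and DESeq2 gave 0 in both counts. Ncl had the largest fold change (1.27, 95% interval -0.09 to 2.64, adjusted p = 0.349). Gar1 was at 98.6 and 93.4 CPM in mixed cancer cells and at 39.3 and 49.8 CPM in mixed WT cells (1.05, 95% interval -0.27 to 2.36). The difference between both cultures (mixed minus pure) is the difference in mixing changes given above with the opposite sign, for which no gene was called.

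Genes of the Myc network and Myc targets outside the nucleolus were counted in cancer against WT cells as well. Of the 28 Myc targets 3 were called, against 14.2% of all tested genes, and of the 8 tested network genes 2 were called. Slc7a5, the light chain of the large neutral amino acid transporter, was at 60.4, 42.2, 13.1 and 11.3 CPM in WT libraries A01, A05, A02 and A06. In cancer libraries A03, A07, A04 and A08 it was at 84.0, 68.8, 156 and 109 CPM. All 4 cancer libraries lay above all 4 WT libraries, and Slc7a5 was higher in cancer cells (log2 fold change 2.04, SE 0.51, adjusted p = 0.00588, edgeR).

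Its heavy chain Slc3a2 was higher as well (1.37, SE 0.35, adjusted p = 0.00684). It was at 160, 152, 131 and 229 CPM in WT cells and at 268, 560, 549 and 394 CPM in cancer cells, in the same library order. Ccnd2, cyclin D2, was lower in cancer cells (-1.72, SE 0.44, adjusted p = 0.00770), at 104 to 170 CPM in WT cells and 26.2 to 47.9 CPM in cancer cells. Over the list of 28 Myc targets, 2 were higher and 1 was lower in cancer cells, with a median of -0.13. Srm, spermidine synthase, was called between mixed cancer and mixed WT cells, as was Slc7a5, so that 2 of 28 were called against 6.42% of all tested genes. Srm was at 52.4 and 54.4 CPM in mixed WT cells and 252 and 202 CPM in mixed cancer cells (log2 fold change 2.09, SE 0.57, adjusted p = 0.0263). Mthfd1, an enzyme of folate metabolism, was lower in pure cancer cells (26.2 and 18.0 CPM) than in pure WT cells (115 and 92.7 CPM, -2.27, SE 0.69, adjusted p = 0.0359), and was the 1 of 28 called there, against 9.95% of all tested genes.

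In the Myc network, 8 of 13 genes were tested. Mycl, a paralog of Myc listed under its older symbol Mycl1, was at 73.2, 76.4, 39.3 and 99.7 CPM in WT libraries A01, A05, A02 and A06. It had 0 reads in A03 and was at 15.0, 9.20 and 36.3 CPM in A07, A04 and A08. All cancer libraries lay below all WT libraries, and Mycl was lower in cancer cells (-2.62, SE 0.65, adjusted p = 0.00588, edgeR). Mycl was also the 1 of 8 network genes called in pure cultures (listed as Mycl1, -3.05, SE 0.95, adjusted p = 0.0418), against 9.95% of all tested genes. Mlxipl, a glucose-responsive factor of the same family, had 78 reads in WT cells and 5 reads in cancer cells, all of the latter in A04 (adjusted p = 0.00458). Mlxipl also had 0 reads in A02, so its groups overlapped. It passed the filter of 23.6 CPM in 2 libraries only through WT libraries A05 (26.4 CPM) and A06 (36.2 CPM). Mycl reached that level in cancer cells only in A08, so it too passed through WT cells. Both calls thus concern genes that were tested because they were high in WT cells. Of the 87 other ribosome biogenesis genes and of the RNA polymerase I machinery, 0 were called in any of the 6 comparisons. The smallest adjusted p among them in cancer against WT cells was 0.0739, for Las1l, a factor in cleavage of the precursor RNA (2.18, SE 0.80). Enterocyte and enteroendocrine markers and most goblet and Paneth markers were near 0 in cancer cells, and the part of this difference in cell types in these calls was not tested.

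Promoters were read beside these values, because Myc and Max bind E-boxes. RefSeq promoters (GRCm38.p6, 250 bases before to 50 bases after the start) matched 35 of the 41 genes. The canonical E-box CACGTG, which reads the same on both strands, was found in 6 of the 35 (17.1%), against 8.09% of 27025 genes. In the 250 bases before the start it was found in 2 of 35 (5.71%), against 6.86% of all. The variant CACGCG, searched on both strands, was found in 11 of 35 (31.4%), against 10.5% of all, and before the start in 6 (17.1%), against 8.65%. A match is a description of these letters, not a site of binding. The 27025 genes were not matched to the list for expression or base composition. What the higher shares reflect was not tested. The 3 genes with an unadjusted p under 0.05 in mixed against pure WT cells are shown first, as 250 bases before the start, 5′ to 3′ on the gene's strand, with any CACGTG in capitals. Imp4 holds it 121 bases before the start, while the stretches of Nop56 and Gar1 hold none. They lie at chr1:34439579-34439828, chr2:130274162-130274411 and chr3:129831397-129831646.
Imp4: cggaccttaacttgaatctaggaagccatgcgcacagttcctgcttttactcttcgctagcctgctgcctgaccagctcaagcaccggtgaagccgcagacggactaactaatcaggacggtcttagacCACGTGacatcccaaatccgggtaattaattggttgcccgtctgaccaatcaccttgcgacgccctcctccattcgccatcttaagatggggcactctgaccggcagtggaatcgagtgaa
Nop56: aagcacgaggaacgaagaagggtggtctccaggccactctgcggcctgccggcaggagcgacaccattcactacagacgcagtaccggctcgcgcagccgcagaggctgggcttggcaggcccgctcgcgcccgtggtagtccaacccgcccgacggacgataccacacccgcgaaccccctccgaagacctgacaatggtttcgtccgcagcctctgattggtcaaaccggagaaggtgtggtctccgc
Gar1: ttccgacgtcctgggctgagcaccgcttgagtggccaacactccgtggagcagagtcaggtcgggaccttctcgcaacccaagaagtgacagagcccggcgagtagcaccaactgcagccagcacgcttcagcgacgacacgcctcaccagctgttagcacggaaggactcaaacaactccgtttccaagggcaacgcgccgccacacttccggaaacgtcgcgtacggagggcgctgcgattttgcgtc

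The other 5 genes with the E-box are shown as the motif with its neighboring bases, since these flanks differ between genes that share the core. They are Nop2 (chr6:125131811-125131840, first motif base 60 bases before the start), Pes1 (chr11:3963965-3963994, base 3 after it), Mybbp1a (chr11:72441355-72441376, base 41), Tsr1 (chr11:74898092-74898121, base 25) and Wdr43 (chr17:71616220-71616249, base 18).
Nop2: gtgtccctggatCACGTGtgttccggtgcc
Pes1: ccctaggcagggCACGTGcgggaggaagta
Mybbp1a: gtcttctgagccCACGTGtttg
Tsr1: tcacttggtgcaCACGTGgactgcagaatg
Wdr43: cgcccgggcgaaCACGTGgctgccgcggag
Of the 6 genes with the E-box, Imp4 (-1.98), Nop2 (-1.09), Mybbp1a (-0.60) and Pes1 (-0.55) were tested in mixed against pure WT cells, and none was called (edgeR, smallest adjusted p = 0.333). Mybbp1a was at 94.3 and 114 CPM in pure and at 78.6 and 63.4 CPM in mixed WT cells, and 18.2% of its last windows are shared with Spns2, which overlaps it on the other strand. Tsr1 and Wdr43 had too few reads for testing, with 15 and 44 reads in pure WT cells and 4 and 2 reads in mixed WT cells.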

How the data were processed

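The authors aligned read 2 with BWA to RefSeq transcripts of mm10, dropped reads without a single best position, and counted the rest per gene with featureCounts. The main table they deposited holds raw read counts that include amplification copies, and a further table holds counts of different molecule barcodes. They also deposited estimated counts of transcripts, corrected for molecules that drew the same barcode, which were rounded to whole numbers here. The authors' DESeq2 1.22.2 table of mixed against pure WT cells (fold changes and p-values) was not used.

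Of the count table, 2 rows that are no mouse genes (1 read) were left out, which left 13420 genes. Samples were grouped by their labels, with wells as replicate names. A further allele of the cancer cells is not reported here. Read counts of all 8 libraries were fitted together in edgeR 4.0.16 (R 4.3.3) with TMM factors, filterByExpr at a minimum count of 10 and the quasi-likelihood test. The call threshold was 0.05 on the p-value after Benjamini-Hochberg adjustment. The filter asks for 23.6 CPM in 2 libraries, so a gene high in a single group could pass. The 6 comparisons were mixed against pure and cancer against WT cells within each group or culture, cancer against WT cells over both cultures, and the difference of the mixing changes. Depth is known as total reads. Poisson and Wilson intervals cover counting error of reads only. They treat amplification copies as independent and can be too narrow. Alternatives were DESeq2 1.42.0, counts of barcodes or of transcripts, factors by upper quartile or by median of ratios, a filter at 50 or none, fits restricted to the libraries compared, and leaving out each library. A fit with the set of wells as a block was added after seeing the data.

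The genes and all lists were chosen with earlier results of these data known. Genes named are Myc, those called, and the genes with the highest and lowest change of cancer against WT cells in each role. Of the other lists, called genes were named, or the one with the smallest p. Others that are named were chosen after their values were seen. Positions and shared windows of 50 bases in the last 500 bases came from GENCODE vM21 (GRCm38), where 10 of the 41 genes shared over 10% of their windows with another locus, and promoters from RefSeq (GRCm38.p6).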

Additional observations from a re-analysis of the deposited data

How the results depend on the processing

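None of the 41 genes was called in any of the 6 comparisons under the alternatives that were run, except Nop56 in the blocked fit given last. The median in mixed against pure WT cells stayed below 0 throughout, between -0.76 and -0.49. With a minimum count of 50, which left 10 of the genes, the median in pure cancer against pure WT cells was -0.30 and that of the difference of the mixing changes -0.41. With each library left out in turn, the medians ranged from -0.82 to -0.38 in pure cancer against pure WT cells, from -0.23 to 0.48 in mixed against pure cancer cells, from -0.28 to 0.17 in cancer against WT cells over both cultures, from 0.048 to 0.49 in mixed cancer against mixed WT cells and from -1.18 to -0.25 for the difference of the mixing changes. The median in mixed against pure cancer cells was 0.48 without A03, and that of the difference was -0.25 without A04. The number of all genes called in mixed against pure WT cells was 39, and 2 without A06, 8 without A05, 118 without A07, 107 without A03, 90 without A02 and 89 without A08. It was 93 with barcode counts, 82 with transcript counts, 68 without a filter, 73 with DESeq2, 119 with wells as a block and 108 in a fit of only the libraries compared. In pure cancer against pure WT cells it was 524, and 232 at a minimum count of 50, 314 without A01, 261 without A05 and 342 without A07. In mixed cancer against mixed WT cells it was 338, and 151 at a minimum count of 50, 167 without A04 and 220 without A06. In cancer against WT cells over both cultures it was 746, and 314 at a minimum count of 50. For the difference of the mixing changes it was 4, and between 1 and 32 over the alternatives. For single named genes, 57 fold changes moved by more than their standard error in the main fit and 1303 did not. None of these had a call, and Nop56 passed the test in the blocked fit. Median-of-ratios factors moved the median of all genes in mixed against pure WT cells from -0.10 to -0.002. Apart from the lower number of genes or samples tested, the cause of these differences was not tested. The labels give the groups no shared replicate numbers, so the samples were not paired. In a fit with wells A01 to A04 and A05 to A08 as a replicate block, chosen after seeing the data and taken from the well numbers only, 1 of the genes was called in mixed against pure WT cells (Nop56, log2 fold change -1.81, adjusted p = 0.0495, edgeR) and 0 in the other 5 comparisons.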
